A study of Mus musculus with 6 samples.

Results

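SR proteins and heterogeneous nuclear ribonucleoproteins (hnRNPs) are the RNA-binding proteins that steer the choice of splice sites in pre-mRNA. Their genes were taken by name, as every gene called Srsf followed by a digit or starting with Hnrnp, with names ending in -ps left out, which gave 32 of the 26776 genes measured. These are 11 SR genes, 20 hnRNP genes and 1 pseudogene, Hnrnpa1l2-ps2, whose name the rule did not remove. A filter on low counts left 31 of the 32 among 18081 genes tested. The SR gene Srsf12 did not pass it and is described separately.

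SR proteins carry RNA recognition motifs and a tail rich in arginine and serine. They bind exonic enhancers and recruit the U1 and U2 particles to nearby splice sites. Many hnRNPs coat the nascent transcript and often oppose exon inclusion, and members of both families also act in export, stability and translation of mRNA. Genes of both families commonly limit their own output through alternative exons that send the transcript to nonsense-mediated decay. In blood, SRSF2 is one of the splicing factor genes recurrently mutated in myelodysplastic syndromes.

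The cells were labelled as long-term haematopoietic stem cells (LT-HSCs), which sustain blood formation in the bone marrow. The eGFPlo libraries went against that label in part, with granulocyte-monocyte and B cell markers each at a higher summed level than LT-HSC markers. In eGFPhi these 2 sums were lower but not absent, at 291 to 299 and 736 to 760 CPM. Sums of different genes do not measure shares of cells. Trim47+/eGFP mice, whose genotype name puts a green fluorescent reporter on one allele of Trim47, gave the cells, and sorting split them by low (eGFPlo) and high (eGFPhi) fluorescence into 3 RNA-seq libraries each. All libraries share that genotype and no treatment is named. None of the sources used here gives strain, age, number of animals or the sorting gate, nor whether libraries of a group are separate animals. The p-values therefore measure the spread between libraries, which may be technical. Levels are CPM (read counts scaled to library size with TMM factors) and fold changes are eGFPhi over eGFPlo, relative to the bulk of genes.

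Total counts were 11221070 to 26058391 per library. Trim47 itself was at 7.28, 8.18 and 8.92 CPM in eGFPlo and 21.6, 26.2 and 23.3 CPM in eGFPhi, which checks the sort labels. Of 12 LT-HSC marker genes 11 were higher in eGFPhi, and Ly6a did not pass. The summed level of the 12 was 999 to 1031 CPM in eGFPlo and 2164 to 2380 CPM in eGFPhi. Kit was the largest part of the eGFPlo sum, at a mean of 539 CPM, and was at 783 CPM in eGFPhi. Markers of other cells moved the opposite way, and in eGFPlo the B cell gene Ighm, at 3026 ± 47.3 CPM, and the progenitor gene Mpo, at 3885 ± 79.3 CPM (SD, n = 3 libraries each), each exceeded the sum of the LT-HSC markers. All 9 granulocyte-monocyte progenitor markers were lower in eGFPhi, summing to 5301 to 5418 CPM against 291 to 299 CPM, and all 10 B cell markers were lower, at 6121 to 6212 against 736 to 760 CPM, with Igll1 at 0 in every eGFPhi library. Ighm and Igkc, the latter at a mean of 2726 CPM, made up most of the B cell sum in eGFPlo. Erythroid markers were lower for 7 of 8, at 179 to 185 against 94.8 to 104 CPM. For T and NK cells 4 of the 5 tested of 9 markers were lower, with a summed level of 64.2 to 67.8 against 11.6 to 13.4 CPM. Nkg7 made up most of the eGFPlo sum, at 46.0 CPM, and Cd4 did not pass, at 3.48 and 3.87 CPM. Cd3e, Cd3d, Cd3g, Trbc2 and Cd8a were at 0 in eGFPhi. Of these, Trbc2 had only 2.41 CPM in eGFPlo and the others did not pass the filter on low counts. All 12 proliferation markers were lower, at 3540 to 3588 against 1520 to 1535 CPM. Mitochondrial ribosomal RNA took 11.2 to 11.6% of counts in eGFPlo and 12.2 to 12.3% in eGFPhi, without overlap. The part of other cells, of proliferation and of this share in the results on splicing factors was not tested, and in these bulk libraries fewer cells of a type and less RNA per cell cannot be told apart.

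Splicing factor transcripts were mostly lower in the eGFPhi libraries. Of the 31 tested genes 26 (83.9%) were lower and 2 (Srsf5 and Hnrnpa3) were higher at an adjusted p under 0.05 (edgeR quasi-likelihood test, Benjamini-Hochberg adjustment over all tested genes), and 3 (Srsf6, Srsf11 and Hnrnph3) did not pass. Over all tested genes 31.7% were lower and 32.3% were higher. Since 30 of the 31 have a mean of at least 40 CPM, the comparison was repeated, as a choice made after seeing the data, among the 4918 genes at that level: 39.6% of those were lower, against 25 of the 30. The median log2 fold change was -0.29 over the splicing factors, 0.0035 over all tested genes and -0.04 over genes of at least 40 CPM.

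The differences were small and the libraries close to one another. The spread within a group (SD over mean) had a median over the 31 genes of 2.68% in eGFPlo and 2.10% in eGFPhi. All 3 eGFPhi values lay below all 3 eGFPlo values for 26 genes, above them for 3, and overlapped for 2, where all tested genes gave 34.6% below and 35.2% above. A difference of at least 25% of the smaller value was reached by 12 of the lower genes and by both higher genes, while 24.9% of all tested genes were lower and 26.8% higher by that much. If the libraries are assumed to vary with a biological coefficient of variation of 0.2, in place of the fitted common value of 0.0941, Srsf9 is the only 1 of the 31 called lower and Hnrnpa3 the only 1 called higher. Under that setting 2982 of all 18081 tested genes are lower and 3637 are higher. The high share of lower genes among the splicing factors is thus not seen there. For a single gene an exact two-sided permutation test of 3 libraries against 3 cannot go below p = 0.1, the value it gave for Hnrnpa2b1.

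**Figure D1:**
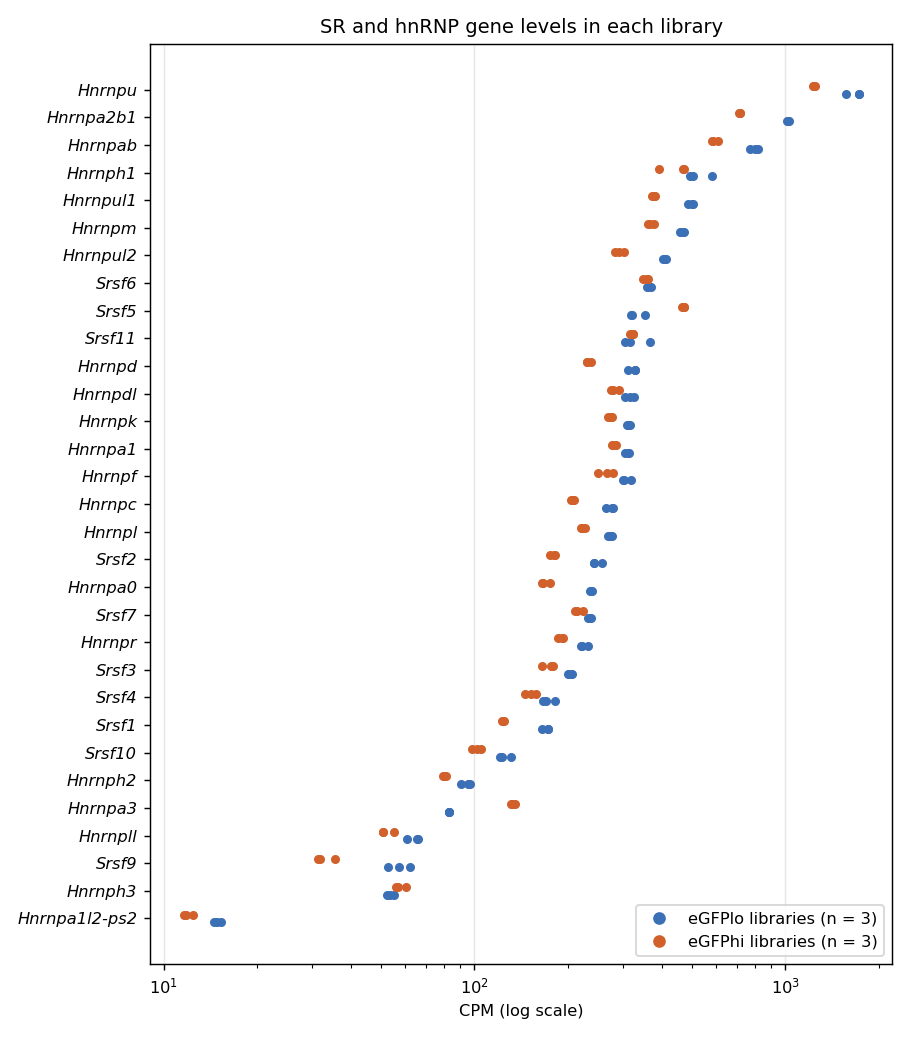
Level of each tested SR and hnRNP gene in every library, in CPM on a log axis, ordered by the eGFPlo mean (blue points eGFPlo, orange points eGFPhi, 3 libraries each). The eGFPhi points sit to the left for 26 genes and to the right for Srsf5, Hnrnpa3 and Hnrnph3. Srsf12, with no count in eGFPlo, is not drawn.

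Levels of each gene's own row were also scaled to length (mean CPM per kilobase of merged annotated exons). The highest in eGFPlo were those of Hnrnpab at 285.9, Hnrnpa2b1 at 155 and Hnrnpu at 144. The lowest among the tested genes were Hnrnpll at 5.48 and Hnrnpr at 10.1. Their merged exons are long, at 11677 and 22199 bases, and Hnrnpr was at 224 CPM before this scaling. In eGFPhi, Srsf5 stood at 118 per kilobase, above Hnrnpa2b1 at 108 and Hnrnpu at 107. Hnrnpab stayed the highest there at 212. These ranks leave out reads counted at copies elsewhere in the genome, described below, and would not hold with them added. Hnrnpa1, with 3153 bases of exons, was at 310 CPM in eGFPlo and 281 CPM in eGFPhi on its own row. With its copies it was at 1017 and 880 CPM.

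Among the SR genes, 7 of the 10 tested were lower, 1 was higher and 2 did not pass, at a median log2 fold change of -0.20. Srsf9, which regulates alternative splicing with a short arginine-serine tail, had the lowest log2 fold change of the family. It was at 52.8, 62.1 and 57.1 CPM in eGFPlo and 31.9, 35.5 and 31.3 CPM in eGFPhi, so that every eGFPhi library lay below every eGFPlo library. This was a 1.74-fold fall (log2 fold change -0.80, SE 0.08, adjusted p = 7.77e-05, edgeR). Across all tested genes 2293 had a lower log2 fold change than Srsf9.

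Srsf1 and Srsf2 are the classical SR proteins SF2/ASF and SC35. Srsf1 (chr11:88047373-88053755, plus strand, GRCm38) was at 172, 165 and 173 CPM in eGFPlo and 123, 124 and 123 CPM in eGFPhi. Its groups were far apart relative to their spread, and it fell by 0.46 on the log2 scale (SE 0.03, adjusted p = 8.90e-06, edgeR). Srsf2 (chr11:116849901-116853094, minus strand) was at 242, 258 and 243 CPM against 180, 175 and 182 CPM and fell by 0.47 (SE 0.03, adjusted p = 1.65e-05, edgeR). Srsf2 lies 723 kb from the reporter-tagged Trim47 on the same chromosome, and Trim47 moved the opposite way. Mettl23 and Mfsd11 on the other strand share 15.6% and 9.74% of the exon length of Srsf2. Both were lower as well (log2 fold change -0.56 and -0.55). They were at 9.36 and 6.09 CPM in eGFPlo and at 6.31 and 4.24 CPM in eGFPhi.

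Smaller falls were measured for Srsf10, a regulator that becomes a repressor when dephosphorylated (log2 fold change -0.30), for Srsf3, which links splicing to mRNA export and 3′ end choice (-0.22), for Srsf4 (-0.19) and for Srsf7, another export adaptor (-0.12). Each of these 4 had eGFPhi values entirely below those of eGFPlo. Exons of 11 of the 32 genes overlap those of a gene on the other strand and, with the strand mode of the counting unknown, reads of such pairs cannot be told apart. Srsf4 shares 43.0% of its exon length with exons of Gm12992 on the other strand. That partner had 2.10 CPM in eGFPlo and 4.80 CPM in eGFPhi, against 173 and 152 CPM for Srsf4.

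Srsf6 and Srsf11 stayed close to level. Srsf6 had 361, 358 and 369 CPM in eGFPlo and 348, 359.5 and 360.3 CPM in eGFPhi, overlapping groups with a log2 difference of -0.03 (adjusted p = 0.356, edgeR; 95% normal interval from the SE -0.07 to 0.02). Srsf11 had 366, 305 and 317 CPM against 324, 317 and 324 CPM, where the first eGFPlo library stood above the other 5. Its interval ran from -0.15 to 0.09 (adjusted p = 0.672, edgeR).

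Srsf5, also known as SRp40, went the other way. It was at 322, 320.0 and 354 CPM in eGFPlo and 465, 473 and 473 CPM in eGFPhi, with no overlap. It rose 1.42-fold (log2 fold change 0.50, SE 0.04, adjusted p = 2.60e-05, edgeR; 0.0837 with the assumed coefficient of variation of 0.2). With it the make-up of the SR transcripts shifted. Srsf5 held 14.2 to 15.8% of all SR counts in eGFPlo and 21.9 to 22.4% in eGFPhi, whereas Srsf9 held 2.33 to 2.84% and 1.48 to 1.66%. The summed SR level itself was 2191 to 2268 CPM in eGFPlo and 2114 to 2144 CPM in eGFPhi.

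Srsf12, an SR protein described as a splicing repressor, was counted only in eGFPhi. It had 0 counts in all 3 eGFPlo libraries and 6, 22 and 24 counts in eGFPhi (0.534, 0.845 and 1.23 CPM). Set against a floor of 3 counts over the eGFPlo group, 0.0681 CPM, its eGFPhi mean of 0.871 CPM was 12.8-fold higher. The floor allows for counting error in eGFPlo but not in eGFPhi, so this fold is not a lower bound. With 52 counts in all this rests on few reads.

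**Figure D2:**
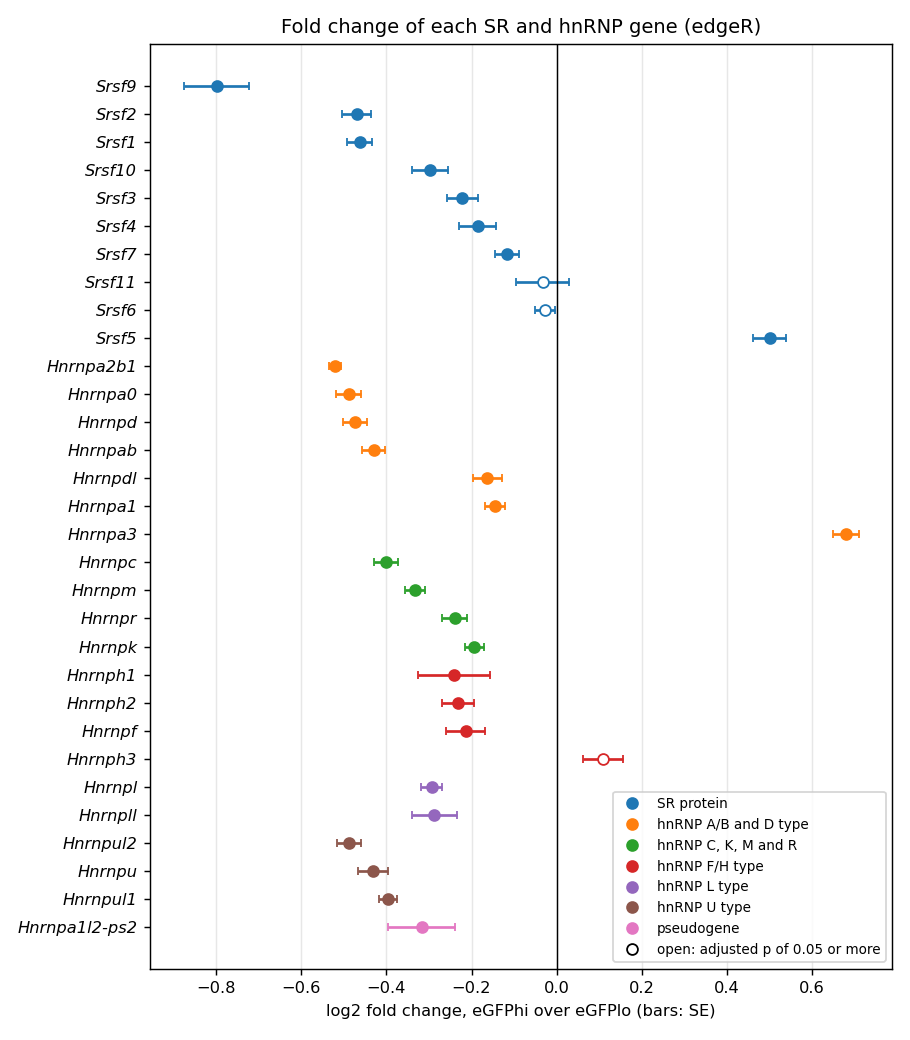
Log2 fold change of each tested gene (eGFPhi over eGFPlo, edgeR, bars 1 SE), grouped and coloured by class, with open symbols for genes that did not pass the adjusted threshold. Most points lie left of 0, and Srsf5 at 0.50 and Hnrnpa3 at 0.68 stand apart on the right.

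The hnRNP genes were lower for 18 of 20 and higher for 1, at a median log2 fold change of -0.29. Their summed level was 8223 to 8276 CPM in eGFPlo and 6396 to 6547 CPM in eGFPhi. The A/B and D type proteins bind single-stranded RNA through paired recognition motifs, and their genes were lower for 6 of 7. Hnrnpa2b1, which sorts microRNAs and binds methylated RNA, was at 1016, 1028 and 1019 CPM in eGFPlo and 716, 707 and 712 CPM in eGFPhi. It fell by 0.52 (SE 0.02, adjusted p = 2.17e-07, edgeR), with within-group spreads of 0.634% and 0.636%.

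Hnrnpa0, which binds AU-rich elements of inflammatory mRNAs, was at 239, 235 and 237 CPM against 165, 175 and 167 CPM (log2 fold change -0.49). Hnrnpd, the AU-rich element binding protein AUF1, was at 327, 328 and 313 CPM against 230, 237 and 230.4 CPM (-0.47). Hnrnpab was at 814, 772 and 799.6 CPM against 587, 605 and 579 CPM (-0.43). In these 3 genes, too, the groups did not overlap, and the adjusted p in the edgeR fit was 6.37e-06, 6.31e-06 and 7.25e-06. Hnrnpab shares 29.1% of its exon length with Phykpl on the other strand, at 7.76 and 8.74 CPM. Hnrnpdl, the neighbour of Hnrnpd at a gap of 54.6 kb on chromosome 5, had a log2 fold change of -0.16 and Hnrnpa1, a general splicing repressor, of -0.15, both past the threshold.

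Hnrnpa3, a close relative of Hnrnpa2b1, carried the one higher hnRNP row. It was at 83.1, 82.5 and 82.7 CPM in eGFPlo and 132, 131 and 135 CPM in eGFPhi, a 1.60-fold rise (log2 fold change 0.68, SE 0.03, adjusted p = 1.44e-06, edgeR). This direction belongs to the gene's own row only. A search of the annotated transcripts found 23 genes elsewhere in the genome that share at least 100 distinct 50-base words with Hnrnpa3 transcripts, 22 of them pseudogenes. Together these copies held 91.5 to 91.9% of the summed counts of Hnrnpa3 and its copies in eGFPlo and 80.9 to 82.2% in eGFPhi. To show how little separates them, coding bases 265 to 384 of Hnrnpa3 (counted from the first coding base, GENCODE M21 transcripts on GRCm38) are given with the same stretch of 3 copies, in lower case with capitals at bases that differ from Hnrnpa3.
Hnrnpa3: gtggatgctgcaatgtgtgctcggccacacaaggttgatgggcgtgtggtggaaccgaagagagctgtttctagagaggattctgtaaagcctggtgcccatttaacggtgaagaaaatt
Gm5641: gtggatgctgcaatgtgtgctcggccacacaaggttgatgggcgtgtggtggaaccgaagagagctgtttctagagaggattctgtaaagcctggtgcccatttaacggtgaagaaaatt
Gm8991: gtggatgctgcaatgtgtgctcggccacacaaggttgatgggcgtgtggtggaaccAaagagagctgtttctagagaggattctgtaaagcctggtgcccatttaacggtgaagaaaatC
Gm6363: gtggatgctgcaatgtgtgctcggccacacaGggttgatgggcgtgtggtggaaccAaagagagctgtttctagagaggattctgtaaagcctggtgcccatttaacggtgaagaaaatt

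Gm5641 (chr3:54481438-54482925, plus strand) matched the Hnrnpa3 coding sequence at all of the 1069 bases aligned out of 1137. Gm8991 (chr5:16729996-16731070, minus strand) was 99.6% identical with 4 mismatches, and Gm6363 (chr16:94242274-94243347, minus strand) 99.2% with 9. A read from such a stretch can be placed at several genes, and none of the sources used here says how such reads were counted.

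The rows of the copies went down where the Hnrnpa3 row went up. Of 21 copies tested 13 were lower and 1, Gm7399 at 1.58 and 2.83 CPM, was higher. Gm5641 was at 368, 373 and 368 CPM in eGFPlo and 219, 217 and 208 CPM in eGFPhi (log2 fold change -0.78), Gm8991 fell by 0.62, Gm6363 by 0.73 and Gm6793, annotated as protein coding, by 0.45. When the counts of all copies were added to Hnrnpa3, an alternative chosen after seeing the data, the sum went from 997 ± 31.1 CPM to 726 ± 15.1 CPM (SD, n = 3 libraries each). The log2 fold change of the sum was -0.46 (adjusted p = 5.88e-06, edgeR), opposite in sign to that of the row alone. Whether Hnrnpa3 mRNA was higher or lower is therefore not settled by these counts.

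**Figure D3:**
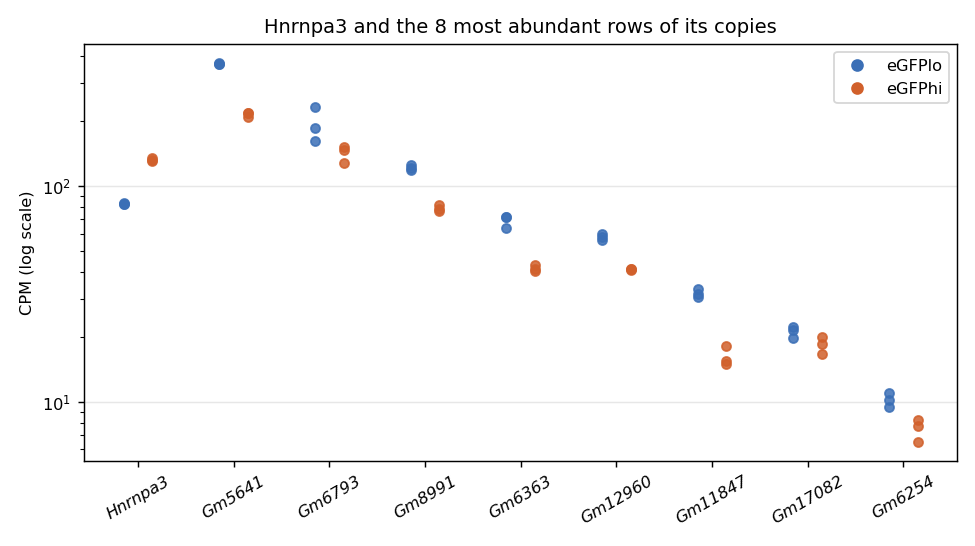
Level of Hnrnpa3 and of its 8 most abundant copies in every library, in CPM on a log axis (blue eGFPlo, orange eGFPhi, 3 libraries each). Hnrnpa3 is higher in eGFPhi, at 131 to 135 CPM, while Gm5641 is lower, at 208 to 219 CPM against 368 to 373 CPM.

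The same search found 50 copies of 11 of the 31 coding genes, 48 of them pseudogenes. For Hnrnpa1, Hnrnpk, Hnrnpf and Hnrnpa3 the copies held over 50% of the summed counts in every library. With copies added, Hnrnpa1 had a log2 fold change of -0.21 (own row -0.15), Hnrnpk of -0.25 (own row -0.19), Hnrnpf of -0.28 (own row -0.21) and Srsf3 of -0.32 (own row -0.22). The rise of Srsf5 stayed: its copy Gm12966 held 38.3 to 40.4% of the summed counts, and the sum rose from 549 ± 23.1 to 770.0 ± 7.40 CPM (SD, n = 3 libraries each; log2 fold change 0.49, adjusted p = 7.82e-06, edgeR). Hnrnpa3 was the only 1 of the 11 whose direction changed. Hnrnpa1l2-ps2, itself among the 32 and a copy of Hnrnpa1, was at 15.3, 14.5 and 14.9 CPM against 11.8, 12.4 and 11.6 CPM (log2 fold change -0.32, adjusted p = 0.00869 in edgeR and 0.0548 in DESeq2).

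**Figure D4:**
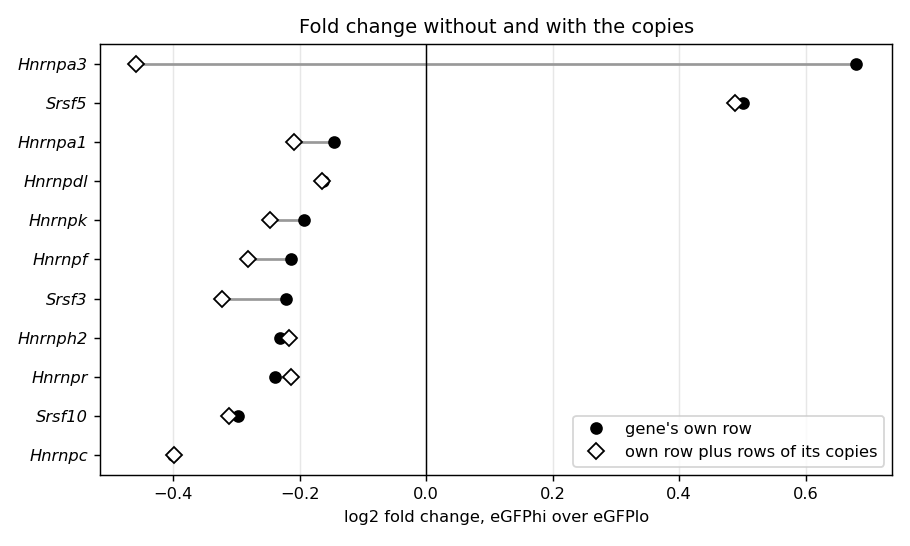
Log2 fold change (eGFPhi over eGFPlo) of the 11 genes with copies elsewhere in the genome, for the gene's own row (filled circles) and for the row plus those of its copies (open diamonds). Hnrnpa3 moves from 0.68 to -0.46, and the other 10 stay on their side of 0.

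The hnRNPs C, K, M and R were lower for 4 of 4 genes. Hnrnpc, whose tetramers measure RNA length and bind uridine tracts, was at 277, 265 and 279.7 CPM in eGFPlo and 209.6, 208 and 205 CPM in eGFPhi (log2 fold change -0.40, adjusted p = 1.52e-05, edgeR). Hnrnpm was at 472, 461 and 459 CPM against 377, 366 and 361 CPM (-0.33, adjusted p = 1.56e-05). For both the eGFPhi libraries lay below every eGFPlo library. Hnrnpr was at 221, 220 and 231 CPM against 191, 192 and 186 CPM (-0.24), and Hnrnpk, a binder of cytosine-rich tracts, fell by 0.19. Hnrnpm shares 14.7% of its exon length with March2 on the same strand.

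The U type proteins bind chromatin-associated RNA, and all 3 of their genes were lower, at a median log2 fold change of -0.43. Hnrnpu (SAF-A, the scaffold attachment factor) was at 1568, 1719 and 1722 CPM in eGFPlo and 1227, 1249 and 1236 CPM in eGFPhi. It fell by 0.43 (SE 0.04, adjusted p = 3.21e-05, edgeR). Its share of all hnRNP counts was 19.1 to 20.8% and 19.0 to 19.3%. Hnrnpul2 was at 415, 409 and 405 CPM against 283, 302 and 291 CPM (-0.49), and Hnrnpul1 at 503, 487 and 500.1 CPM against 381, 374 and 379 CPM (-0.40). Neither showed overlap between the groups.

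For the L type, Hnrnpl, which binds CA repeats, was at 269, 277 and 272 CPM in eGFPlo and 226, 221 and 221 CPM in eGFPhi. Hnrnpll, known for switching Cd45 exons in lymphocytes, was at 65.45, 65.7 and 60.8 CPM against 50.9, 55.0 and 51.0 CPM. Both fell by 0.29, with adjusted p = 3.19e-05 and 0.00208 (edgeR). All B cell markers were lower in eGFPhi as well, and their part in the Hnrnpll result was not tested.

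The F/H type proteins bind runs of guanine. Hnrnph2 (log2 fold change -0.23) and Hnrnpf (-0.21) were lower. Hnrnph1 was the least stable call. It was at 580.1, 494 and 504 CPM in eGFPlo and 471, 470 and 393 CPM in eGFPhi (-0.24, adjusted p = 0.0367, edgeR), and without the first eGFPlo library the adjusted p was 0.108, without the third eGFPhi library 0.0929. Hnrnph3 was at 54.9, 53.3 and 52.3 CPM against 55.8, 60.25 and 56.7 CPM. Its groups did not overlap, with a log2 difference of 0.11 (adjusted p = 0.0756, edgeR; 0.0353 with upper-quartile factors and 0.0423 with a stricter filter). Hnrnph3 shares 3.65% of its exon length with Rufy2 on the other strand, which was at 21.1 and 34.1 CPM.

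Annotation and promoters were described next, as properties that the naming rule did not use. An annotated transcript that is a target of nonsense-mediated decay exists for 19 of the 31 coding genes, against 28.7% of 12758 tested coding genes. The latter were not matched for level or for number of annotated transcripts. The gap therefore cannot be read as particular to splicing factors. Of the 19 genes, 15 were lower and 1 (Srsf5) was higher, at a median log2 fold change of -0.22. Of the other 12, 11 were tested, of which 10 were lower and 1 (Hnrnpa3) was higher, with a median of -0.33. The gene counts do not separate isoforms, so shifts between productive and decayed transcripts cannot be read from them.

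RefSeq windows of 250 bases before the gene start (GRCm38.p6) were found for 30 of the 32 genes, and 8 short motifs were searched on both strands. The pseudogene Hnrnpa1l2-ps2 is among the 30 and is counted in the CCAAT and TATAAA shares below. The 8 were kept after a wider set had been looked at, so the shares are a description only. The windows they are set against were not limited to expressed genes, so the gaps cannot be read as particular to splicing factors. GGGCGG, the GC box, was in 23 of 30 windows (76.7%, against 32.7% of 32851 windows of the same length) and CCAAT in 16 (53.3% against 33.8%). CCGGAAG, the core bound by ETS factors, was in 6 (20.0% against 6.91%) and the E2F form TTTCCCGC in 3, Srsf1, Srsf10 and Hnrnpul1 (10.0% against 0.895%), while the other E2F form TTTGGCGC was in 0 (against 0.417%). TATAAA was in 4 (13.3% against 12.4%), CACGTG in 2 (6.67% against 6.02%) and the NRF1 motif in 2, Srsf2 and Srsf9 (6.67% against 3.74%). The windows of the higher SR gene and of 3 lower genes are shown to set them side by side, 5′ to 3′ on the gene's strand, with capitals at matches to these motifs on either strand. They are Srsf5 (chr12:80945249-80945498, plus strand), Srsf9 (chr5:115326927-115327176, plus strand), Hnrnpa2b1 (chr6:51469895-51470144, minus strand) and Srsf1 (chr11:88047123-88047372, plus strand).
Srsf5: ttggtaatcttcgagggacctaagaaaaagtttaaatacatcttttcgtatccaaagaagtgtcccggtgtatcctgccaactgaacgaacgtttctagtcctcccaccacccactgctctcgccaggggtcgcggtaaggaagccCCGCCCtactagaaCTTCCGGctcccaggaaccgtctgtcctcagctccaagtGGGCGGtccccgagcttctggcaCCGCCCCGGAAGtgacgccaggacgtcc
Srsf9: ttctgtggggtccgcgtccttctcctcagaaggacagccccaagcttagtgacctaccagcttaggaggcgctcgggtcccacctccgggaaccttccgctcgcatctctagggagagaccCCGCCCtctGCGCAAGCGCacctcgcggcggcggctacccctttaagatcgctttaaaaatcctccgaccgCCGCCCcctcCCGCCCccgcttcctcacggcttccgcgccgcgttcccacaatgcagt
Hnrnpa2b1: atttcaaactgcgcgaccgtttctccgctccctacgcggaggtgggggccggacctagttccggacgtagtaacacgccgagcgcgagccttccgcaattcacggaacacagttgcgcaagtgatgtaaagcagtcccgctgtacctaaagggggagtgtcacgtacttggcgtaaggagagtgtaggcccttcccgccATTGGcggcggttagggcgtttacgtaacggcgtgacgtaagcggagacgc
Srsf1: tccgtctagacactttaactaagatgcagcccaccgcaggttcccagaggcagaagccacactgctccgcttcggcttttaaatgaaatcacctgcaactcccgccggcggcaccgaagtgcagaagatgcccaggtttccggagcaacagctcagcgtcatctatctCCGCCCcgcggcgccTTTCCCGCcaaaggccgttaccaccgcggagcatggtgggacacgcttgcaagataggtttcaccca

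In the Srsf5 window 3 GC boxes and 2 ETS motifs were found, one of each overlapping by a base, and in that of Srsf9 3 GC boxes and 1 NRF1 motif. The Hnrnpa2b1 window held a CCAAT box 51 bases before the start as its only match, and the Srsf1 window a GC box and the E2F form. GC boxes thus stood in windows of higher and of lower genes, in 17 of the 24 lower genes with a window and in 23 of all 30. CCAAT stood in 15 of the 24 lower genes, and its remaining window was that of Hnrnpa3. Whether any motif goes with direction was not tested.

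Other genes of the splicing machinery were counted in the same fit, in 8 lists chosen by function. Of 145 tested, 76 (52.4%) were lower and 31 (21.4%) higher, against 31.7% and 32.3% of all tested genes and 39.6% and 32.3% of genes of at least 40 CPM. The median log2 fold change was -0.14. Kinases of SR proteins, listed together with nuclear import receptors, were lower for 2 of 9 (22.2%) and higher for 1 (11.1%), both below the shares of all genes. Srpk1, which loads SR proteins for nuclear entry, was at 184 ± 7.66 CPM in eGFPlo and 132 ± 7.11 CPM in eGFPhi (SD, n = 3 libraries each; log2 fold change -0.48), Prpf4b fell by 0.13 and Clk1, the nuclear kinase that releases SR proteins from speckles, rose by 0.21. SR-related proteins were lower for 10 of 22 (45.5%) and higher for 7 (31.8%), the latter near the share of all genes. The 4 with the smallest p were falls, of Srrm1 (-0.43), Srrt (-0.23), U2surp (-0.25) and Luc7l3 (-0.33). Proteins of hnRNP type under other names were lower for 13 of 26 (50%) and higher for 6 (23.1%). Among them Ptbp3 (-0.46), Fubp1 (-0.44) and Pcbp1 (-0.41) fell, and Ptbp2, a relative of the polypyrimidine tract binding repressor, rose (0.37).

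The U1, U2 and U2AF list was lower for 14 of 20 (70.0%) and higher for 2 (10.0%). It held changes in both directions at the single gene: the U1 protein Snrpc rose from 77.4 ± 3.39 to 132 ± 1.22 CPM (SD, n = 3 libraries each; log2 fold change 0.77), and the U2 protein Snrpb2 fell from 68.9 ± 0.679 to 37.4 ± 2.53 CPM (-0.89). Sf3a1 (-0.36) and U2af2 (-0.42), which recognise the branch region and the polypyrimidine tract, fell as well. The Sm and LSm ring proteins were lower for 10 of 14 (71.4%) and higher for 0, with a median of -0.33 and falls of Snrpd1 (-0.51), Lsm6 (-0.53), Lsm3 (-0.48) and Lsm2 (-0.77). Tri-snRNP and PRP19 complex genes were lower for 10 of 21 (47.6%) and higher for 4 (19.0%), with falls of Ddx23 (-0.44), Usp39 (-0.61), Eftud2 (-0.28) and Sart1 (-0.28).

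A list of other splicing regulators, some broadly expressed and some tissue-restricted, was lower for 9 of 18 (50%) and higher for 7 (38.9%), so that both shares were somewhat above those of all genes. Msi2, an RNA-binding protein of stem and progenitor cells, rose from 511 ± 7.40 to 715 ± 5.01 CPM (SD, n = 3 libraries each; log2 fold change 0.48), whereas Mbnl3 (-0.66), Khdrbs1 (-0.29) and Rbm10 (-0.42) fell. Exon junction complex and decay genes were lower for 8 of 15 (53.3%) and higher for 4 (26.7%). Magoh (-0.47), Eif4a3 (-0.29) and Upf3b (-0.29) fell and Upf2 rose (0.19).

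**Figure D5:**
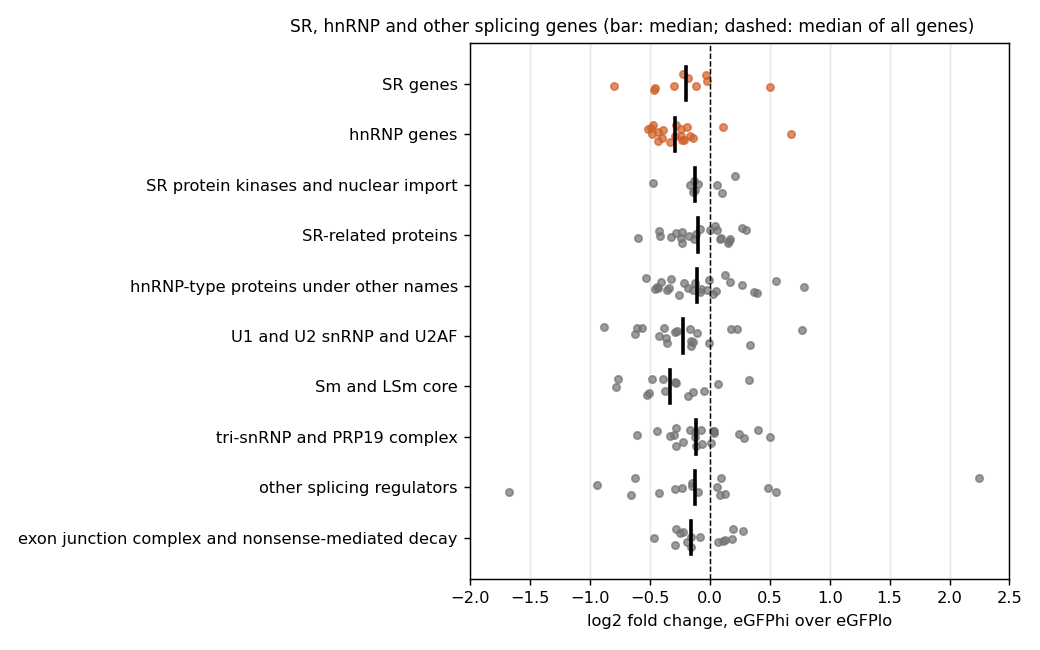
Log2 fold change (eGFPhi over eGFPlo) of each tested gene of the SR and hnRNP families (orange) and of 8 lists of other splicing genes (grey), with a bar at each median and a dashed line at the median of all tested genes. Medians lie between -0.33 and -0.10. Nova1, with a mean of 0.0233 CPM in eGFPlo, lies beyond the right edge.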

How the data were processed

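The authors deposited 1 table that holds, per the file headers, raw read counts and FPKM values (scaled for depth and gene length) of every gene in every library. Per the labels' protocols, poly-A RNA was made into stranded paired-end libraries and read on an Illumina NovaSeq. The submitters' processing notes name CASAVA 1.8, HISAT2, StringTie and edgeR, and the builds GRCm38 and hg38, without their roles. None of the sources used here names the counting program, its strand mode or what it did with reads that fit several genes. The identifiers and coordinates of all 32 genes match GENCODE M21 on GRCm38.

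The deposited counts were tested in edgeR 4.0.16 (R 4.3.3) with filterByExpr (minimum count 10, minimum total 15), TMM factors, quasi-likelihood F tests on group alone and Benjamini-Hochberg adjustment over 18081 genes, threshold 0.05. The deposited FPKM served only in an alternative (limma 3.58.1 on log2 of FPKM plus 1). DESeq2 1.42.0, limma-voom, upper-quartile and RLE factors, a filter of 5 CPM in 3 libraries or none, glmTreat against a difference of 25%, an assumed coefficient of variation of 0.2, the replicate block and leaving out each library were further alternatives. The pipeline was tested on simulated data.

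Genes that differed by at least 25% and were past the threshold, and those of highest and lowest CPM in each class, were given with values in every library, and from each list at most 4 genes past the threshold with the smallest p. The members and lists were chosen with earlier results of these data known. Copies were genes elsewhere sharing at least 100 distinct 50-base words in sense, and at least 10% of their own exon length.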

Additional observations from a re-analysis of the deposited data

How the results depend on the processing

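The counts of 26 lower and 2 higher genes were kept, within 1.5 times, under RLE and upper-quartile factors, no filter, 5 CPM in 3 libraries, DESeq2, limma-voom and limma on FPKM. With an assumed coefficient of variation of 0.2, 1 splicing factor was lower and 1 higher, beside 3637 genes higher and 2982 lower overall. Against a difference of 25% (glmTreat), 11 splicing factors were lower, beside 3837 genes higher and 3396 lower. On log2 of FPKM plus 1 the median log2 fold change was -0.23. With the rows of copies added, a choice made after seeing the data, 1 splicing factor was higher and Hnrnpa3 turned to -0.46. Leaving out each library in turn gave 25 to 26 lower and 2 to 3 higher splicing factors (where there were 3, Srsf12 had passed the filter, as it also did with no filter), a median of -0.29 to -0.26, and 5302 to 5734 genes higher and 5230 to 5693 lower overall.

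Hnrnph1 also lost its call with upper-quartile factors (adjusted p = 0.0530, edgeR), with 5 CPM in 3 libraries (0.0547, edgeR) and on FPKM (0.0616, limma). The other scalings moved the median of all genes by under 0.1 on the log2 scale.

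Replicate numbers are shared between the groups, but the residuals of same-numbered libraries were uncorrelated (r = -0.0133, 0.000555 and -0.0108 across genes), so the pairing was only an alternative. With the replicate block 26 splicing factors were lower and 2 higher, with a median of -0.29, beside 5551 genes higher and 5414 lower overall. It changed no call among the splicing factors.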
